A study of Mus musculus with 36 samples.

Results

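Wnt signalling at the cell surface is set by 3 kinds of protein, each encoded by a small gene family: the secreted Wnt ligands, the Frizzled receptors they bind, and the soluble Sfrp and Dkk inhibitors that block them. Their mRNA levels were followed in 36 bulk RNA-seq libraries of mouse unmyelinated optic nerve (UON), myelinated optic nerve (MON) and retina. Members were every gene of the count matrix whose symbol was Wnt or Fzd with a number (and, for Wnt, an optional a or b), Sfrp1 to Sfrp5, or Dkk1, Dkk2 or Dkk4. This rule used symbols only and took 36 of the 55487 genes: 19 ligands, 10 receptors and 7 inhibitors, of which 4 were Sfrp and 3 were Dkk genes.

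All mice were C57BL/6 and 2 to 4 months old. UON was the short unmyelinated nerve segment next to the globe, MON the first myelinated piece behind the discarded transition zone, and retina was taken whole. Bilaterally naïve mice were the controls, and no sham-operated or sham-injected group was among these libraries. Unilateral optic nerve crush with self-closing forceps was followed for 3 D (days) and 2 W (weeks), and unilateral injection of microbeads into the anterior chamber, which raises intraocular pressure and is the glaucoma model here, for 3 D, 2 W and 6 W. RNA of 2 mice of one sex was pooled for each library, so each of the 6 groups of each tissue had n = 2 pools, 1 female and 1 male, and the same mice gave all 3 tissues (12 pools, 24 mice). Pairs of values below are the female pool, then the male pool. Sex or pool was a term of the main fits, so the p-values measure how far differences varied between such pools after that term. Within a group, sex and pool are the same thing.

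Wnt proteins are lipid-modified, short-range signals. In the canonical branch a ligand joins a Frizzled to the coreceptor Lrp5 or Lrp6, the complex that destroys beta-catenin is switched off, and beta-catenin turns on target genes with TCF/LEF factors. Other branches act without beta-catenin, through Ror receptors or the planar cell polarity proteins, on cell shape and axon guidance. Sfrp proteins carry a Frizzled-like domain and bind the ligand, whereas Dkk1, Dkk2 and Dkk4 bind the coreceptor. In the eye and nerve the system is known for patterning the retina, building its blood vessels and the barrier they form, and timing the maturation of oligodendrocytes.

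Library totals were 16.2 to 78.1 M estimated counts (M for mega, median 43.35). The shallowest naïve library was male MON, with 17.8 M, and the deepest was female MON, with 78.1 M. Because about 4 counts stood for 1 read pair, a level below 3 read pairs (12 counts, or 0.188 to 0.774 CPM, which are counts per M counts of the library) was treated as not detected. The myelin gene Mbp followed the tissue labels, with a median of 74620.0 CPM in MON against 14720.0 in UON and 47.6 in retina. Libraries also differed in summed marker levels, and 5 were picked, after these values were seen and by no fixed limit, for a sum at or next to the extreme of its tissue: male MON at 3 D of glaucoma (fibroblast genes high), male UON at 6 W of glaucoma (fibroblast genes low), male UON at 2 W after crush (myelin genes low), and female MON at 6 W and male MON at 2 W of glaucoma (surface epithelium genes high). Other pools of a group differed as much, such as those of UON at 3 D of glaucoma, with fibroblast sums of 2959.9 and 6173 CPM. Counts over all pools are given with and without the 5.

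The 36 genes lie on 13 chromosomes (GRCm38), and 8 of the ligand genes sit in 4 neighbouring pairs with no other protein-coding gene between them. Wnt6 and Wnt10a are 6193 bases apart on chromosome 1 and read in the same direction. Wnt3a and Wnt9a are 16175 bases apart and Wnt9b and Wnt3 24328 bases apart, both on chromosome 11, and Wnt10b and Wnt1 are 11706 bases apart on chromosome 15; the genes of these 3 pairs point away from each other. Exons of 6 members, Fzd5, Fzd6, Sfrp2, Wnt5a, Wnt7b and Wnt11, overlap exons of an opposite-strand gene, and since strand-aware counting is not given in the sources used here, reads of the pair cannot be told apart there.

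RefSeq promoter windows (GRCm38.p6, the 250 bases before an annotated start) were found for 25 members, 28 windows in all. There was no window for Wnt5a, Wnt7b, Wnt8a, Wnt10a, Fzd2, Fzd3, Fzd6, Fzd8, Dkk4, Sfrp1 or Sfrp4. Windows of 5 members whose levels are central to the comparisons below are shown 5′ to 3′ on the strand of the gene, trimmed where they ran into an annotated transcript: Wnt9a (chr11:59306680-59306927, plus strand), Wnt8b (chr19:44493222-44493471, plus strand) and Fzd1 (chr5:4758217-4758466, minus strand), which were higher in UON than in MON, Wnt3 (chr11:103773925-103774149, plus strand), which was lower, and Wnt5b (chr6:119544348-119544597, minus strand), which fell in MON after crush. Capitals mark a GC box (GGGCGG, or CCGCCC on the other strand) or a TCF/LEF core (CTTTGA, or TCAAAG on the other strand).
Wnt9a: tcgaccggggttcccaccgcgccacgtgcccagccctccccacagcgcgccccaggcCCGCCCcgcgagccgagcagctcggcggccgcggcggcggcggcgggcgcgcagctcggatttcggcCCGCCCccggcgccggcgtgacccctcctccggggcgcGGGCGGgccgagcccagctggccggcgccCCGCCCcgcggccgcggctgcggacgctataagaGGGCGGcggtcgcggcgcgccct
Wnt8b: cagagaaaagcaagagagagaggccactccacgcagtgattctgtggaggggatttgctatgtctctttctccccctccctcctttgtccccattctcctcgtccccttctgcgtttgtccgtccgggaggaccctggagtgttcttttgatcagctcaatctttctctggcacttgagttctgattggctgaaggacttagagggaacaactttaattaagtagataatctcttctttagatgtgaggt
Fzd1: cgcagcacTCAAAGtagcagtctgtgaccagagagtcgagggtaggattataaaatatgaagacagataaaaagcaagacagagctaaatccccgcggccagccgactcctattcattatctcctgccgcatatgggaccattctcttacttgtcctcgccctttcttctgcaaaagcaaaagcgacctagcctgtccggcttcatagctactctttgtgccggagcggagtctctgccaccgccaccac
Wnt3: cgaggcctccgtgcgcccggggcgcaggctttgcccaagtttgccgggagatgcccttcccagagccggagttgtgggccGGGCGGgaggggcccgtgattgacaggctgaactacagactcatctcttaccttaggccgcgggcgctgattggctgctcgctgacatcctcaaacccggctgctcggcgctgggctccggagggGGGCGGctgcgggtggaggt
Wnt5b: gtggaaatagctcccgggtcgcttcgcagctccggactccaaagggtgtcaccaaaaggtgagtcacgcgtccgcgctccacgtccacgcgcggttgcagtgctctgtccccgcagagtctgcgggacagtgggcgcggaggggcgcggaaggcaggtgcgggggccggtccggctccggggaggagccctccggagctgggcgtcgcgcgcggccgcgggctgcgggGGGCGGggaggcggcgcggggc
The members' windows were rich in G and C, with a median of 69.4% against 56.0% over 20150 windows of protein-coding genes, and held a median of 22 CpG dinucleotides against 10. The printed windows ranged from 84.3% G and C with 5 GC boxes in Wnt9a to 48.4% with none in Wnt8b, although both genes were higher in UON than in MON. Fzd1 (51.2%) held the single TCF/LEF core among the 5 printed. Wnt5b has 3 windows, and one not printed (chr6:119449387-119449636, 55.6% G and C) holds such a core too. A GC box was present in 20 of the 28 windows (44.1% of protein-coding windows), a TCF/LEF core in 4 of 28 (12.6%) and a TATA box (TATAAA, or TTTATA on the other strand) in 4 of 28 (11.2%). These are matches of letters and were not tested as sites.

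Levels between genes were compared per transcript length, as FPKM (fragments scaled by transcript length and library size), with the median and range over the 12 libraries of a tissue. A median of at least 1 CPM, a limit above the detection floor, was reached by 26 of 36 members in UON, 21 in MON and 17 in retina. The share of all genes at this level is not given here, so these counts do not set the members apart from other genes. All 10 receptors were above 0 in all 36 libraries.

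Among the ligands of UON, Wnt6 had a median of 29.6 FPKM (3.08 to 59.6) and Wnt7b, the ligand known for building brain vessels and their barrier, 27.1 FPKM (14.6 to 47.2). The ranges of these 2 overlap almost fully. Wnt5b followed at 14.8 FPKM (5.23 to 17.9) and Wnt5a, its closest relative and the best known ligand of the beta-catenin-independent branch, at 10.6 FPKM (5.68 to 15). Wnt9a, Wnt8b, Wnt4, Wnt11, Wnt10a, Wnt16 and Wnt3 had medians of 6.79 down to 1.1 FPKM, each overlapping its neighbour in the order. In MON the order changed: Wnt7b led at 11.3 FPKM (4.92 to 22.5), with Wnt5b at 9.67 FPKM (1.51 to 13.8) and Wnt3 at 6.71 FPKM (2.99 to 11.5), while Wnt6 was at 1.62. The retina held little ligand mRNA, led by Wnt5b at 1.8 FPKM (0.927 to 2.35) and Wnt2b, known from the rim of the developing retina, at 0.954 FPKM (0.716 to 1.93).

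Fzd1 was the receptor with the highest median in UON, 75.9 FPKM (40.9 to 111), a range that lay above that of each of the 35 other members except Wnt6, Wnt7b and Sfrp4. Fzd3, a receptor needed for axon guidance, had 18.8 FPKM (10.5 to 28.7), and Fzd9 14.2 FPKM (2.33 to 32.1). In MON 3 receptors overlapped at the top: Fzd9 at 19.4 FPKM (1.31 to 36.6), Fzd3 at 12.1 FPKM (3.92 to 17.6) and Fzd1 at 11.6 FPKM (5.55 to 29.4). In retina the order was led by Fzd4, the Norrin receptor of retinal vessels, at 2.87 FPKM (2.37 to 3.5), and Fzd5, which is needed for eye formation, at 2.76 FPKM (1.83 to 3.55). The lowest medians were those of Fzd8 in UON (0.57 FPKM) and MON (0.264 FPKM) and of Fzd2 in retina (0.109 FPKM).

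Sfrp4 was the leading inhibitor of both nerve regions, at 13.9 FPKM (9.16 to 53.1) in UON and 4.32 FPKM (1.57 to 25.6) in MON. Sfrp1 had 4.96 FPKM (2.04 to 13.4) in UON and led in retina at 0.567 FPKM (0.114 to 0.849). Sfrp5 had 2.51 FPKM (0 to 4.77) in MON. Dkk2 reached a median of 0.684 FPKM in UON and Sfrp2 one of 0.272 in retina. Dkk1 and Dkk4 had medians of 0 in all 3 tissues, and Dkk4 was at 0 in all 12 MON libraries. Of the ligands, Wnt1 and Wnt3a had medians of 0 FPKM in every tissue and never passed 0.269 CPM in a library, and Wnt8a peaked at 0.418 CPM in the female UON library at 3 D of glaucoma.

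**Figure D1:**
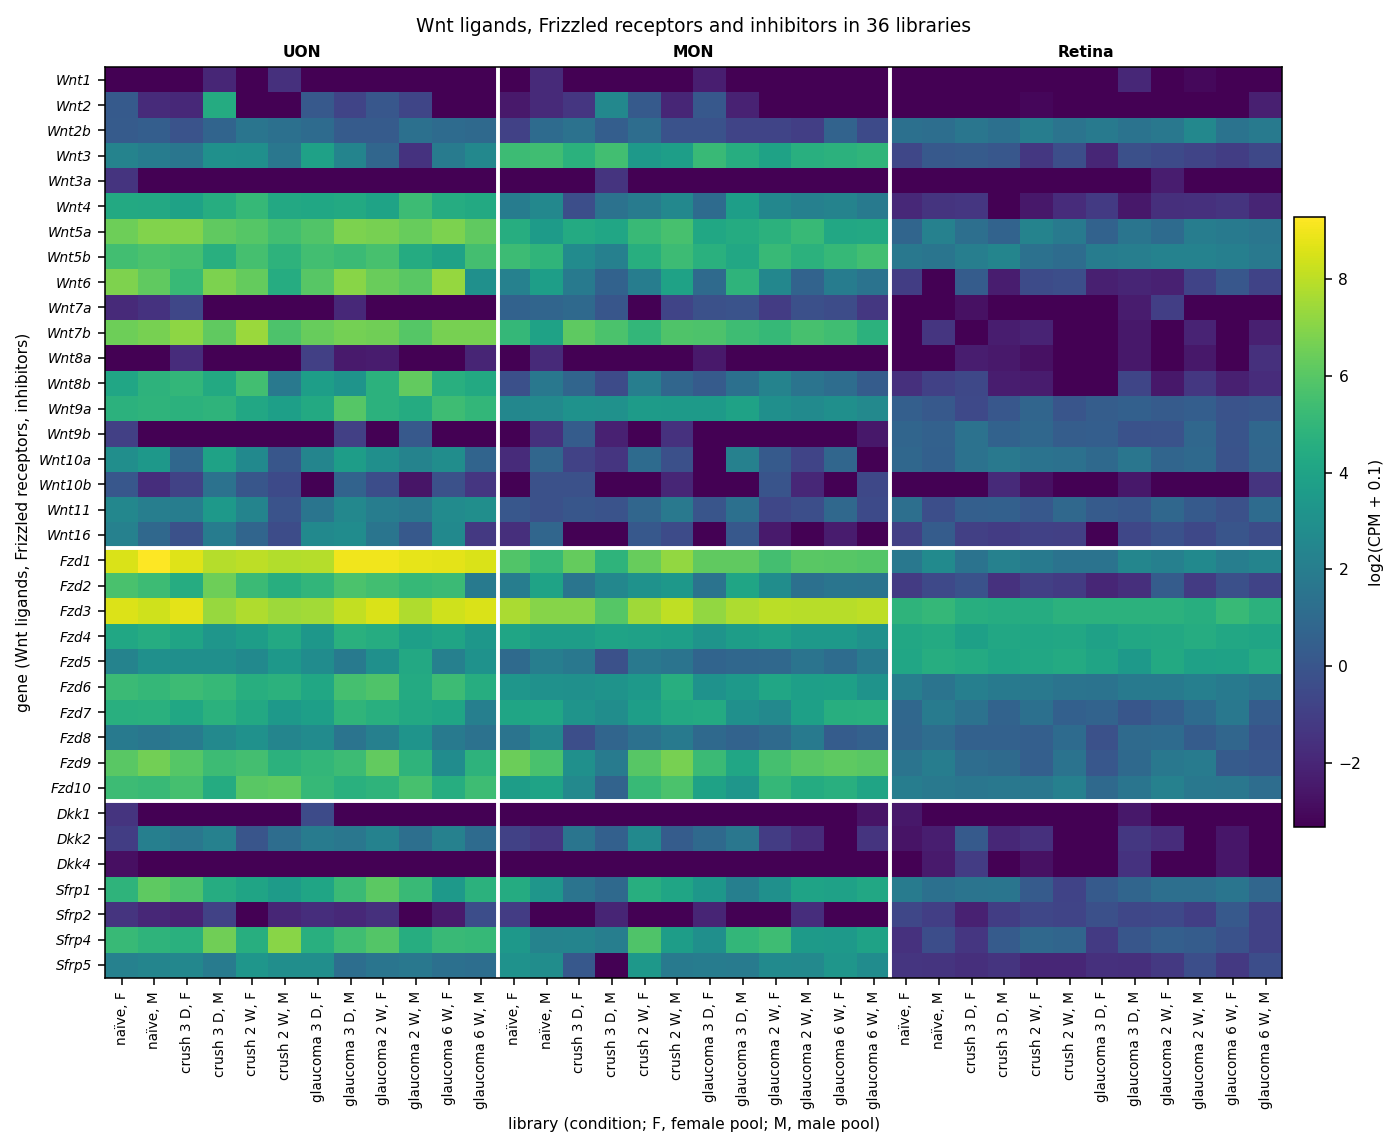
Level of each of the 36 genes (rows, grouped as ligands, receptors and inhibitors) in each of the 36 libraries (columns, grouped by tissue, condition and sex pool) as a colour scale of log2(CPM + 0.1). The block of Fzd1, Fzd3, Wnt5a, Wnt6 and Wnt7b is bright in UON, Wnt3 is brighter in MON than in UON, and most ligands are dark in retina.

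The first comparison asked which members separated the unmyelinated from the myelinated nerve in naïve mice. Of 30 members tested, 9 were higher in UON and 1, Wnt3, was higher in MON (called: an absolute log2 fold change over 1 at an edgeR adjusted p below 0.05). Over all 23685 genes tested, 9.63% passed these limits, 4.86% as higher in UON. The median log2 fold change, UON minus MON, was 1.73 over the members and -0.06 over all genes.

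Among the ligands, Wnt5a stood at 91 and 117 CPM in UON and 23 and 12.1 CPM in MON (log2 fold change 2.47 ± 0.53, edgeR adjusted p = 0.0402). Wnt9a, known from joint formation, was at 26.9 and 29.5 CPM against 5.63 and 6.07 CPM (log2 fold change 2.23 ± 0.33, edgeR adjusted p = 0.00733). Both pools of UON were above both of MON for each, with little spread within a tissue for Wnt9a. Wnt8b, a ligand of the embryonic forebrain, was at 17.1 and 28.2 CPM against 0.732 and 3.24 CPM (log2 fold change 3.76 ± 0.53, edgeR adjusted p = 0.00603), and Wnt4, known for kidney and ovary development, at 19.7 and 19.4 CPM against 3.79 and 5.83 CPM (log2 fold change 2.03 ± 0.41, edgeR adjusted p = 0.0233).

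Wnt3, which acts in the early embryo and in the stem cell niche of the gut, went the other way. It was at 4.86 and 3.77 CPM in UON and 39.2 and 42.1 CPM in MON (log2 fold change -3.25 ± 0.39, edgeR adjusted p = 0.00346). The 2 MON pools were nearly equal and lay far above both UON pools.

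Among the receptors, Fzd1 (chr5:4753839-4758035, minus strand) differed most: 380.0 and 615 CPM in UON and 57.4 and 35.1 CPM in MON (log2 fold change 3.31 ± 0.42, edgeR adjusted p = 0.0052). Its close relative Fzd2 was at 50.2 and 39.1 CPM against 3.95 and 15.9 CPM (log2 fold change 2.44 ± 0.59, edgeR adjusted p = 0.0496), just inside the limit. The third gene of that subfamily, Fzd7, was at 24.2 and 25.1 CPM against 17 and 17.5 CPM and was not called (log2 fold change 0.48 ± 0.35, edgeR adjusted p = 0.467). The planar cell polarity receptors Fzd3 and Fzd6 were both higher in UON. Fzd3 was at 389.5 and 332 CPM against 206 and 125 CPM (log2 fold change 1.11 ± 0.25, edgeR adjusted p = 0.034), and Fzd6 at 37.8 and 33.5 CPM against 9.66 and 8.11 CPM (log2 fold change 1.97 ± 0.29, edgeR adjusted p = 0.00684). Fzd10 was at 39.5 and 37.3 CPM against 12.6 and 15.9 CPM (log2 fold change 1.40 ± 0.28, edgeR adjusted p = 0.0248), whereas its close relative Fzd9 was at 66.1 and 97.1 CPM against 87.1 and 50.8 CPM, with overlapping pools (log2 fold change 0.19 ± 0.33). The pools of UON and MON did not overlap for any of the 5 called receptors, nor for Fzd4, Fzd5 and Fzd7, which were not called. With 2 pools a tissue, the lack of overlap is no added support for a call.

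No inhibitor was called by edgeR, although 2 of them, Sfrp4 and Sfrp1, had an unadjusted p under 0.05 and were called by DESeq2. Of all genes, 24.8% had an unadjusted edgeR p under 0.05, and DESeq2 called 3644. Sfrp4 was at 35.9 and 29.3 CPM against 10.3 and 4.81 CPM and missed the limit by little (log2 fold change 2.09 ± 0.53, edgeR adjusted p = 0.052). Sfrp1 was at 28.9 and 69.7 CPM against 21.2 and 9.85 CPM (log2 fold change 1.67 ± 0.57, edgeR adjusted p = 0.128). Some ligands with large fold changes were not called either. Wnt6 was at 115 and 73.8 CPM in UON and 4.57 and 13.2 CPM in MON (log2 fold change 3.36 ± 1.03, edgeR adjusted p = 0.138). Its neighbour on chromosome 1, Wnt10a, a ligand of tooth and hair formation, was at 7.28 and 10.4 CPM and 0.191 and 1.68 CPM (log2 fold change 3.57 ± 0.96, edgeR adjusted p = 0.0614). In MON the male pool was above the female pool for both. Wnt7b (log2 fold change 1.99 ± 0.72, edgeR adjusted p = 0.176) and Wnt11 (log2 fold change 2.43 ± 0.75, edgeR adjusted p = 0.092) were likewise above MON in both pools without a call. A p that misses the limit does not show that a level was the same.

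**Figure D2:**
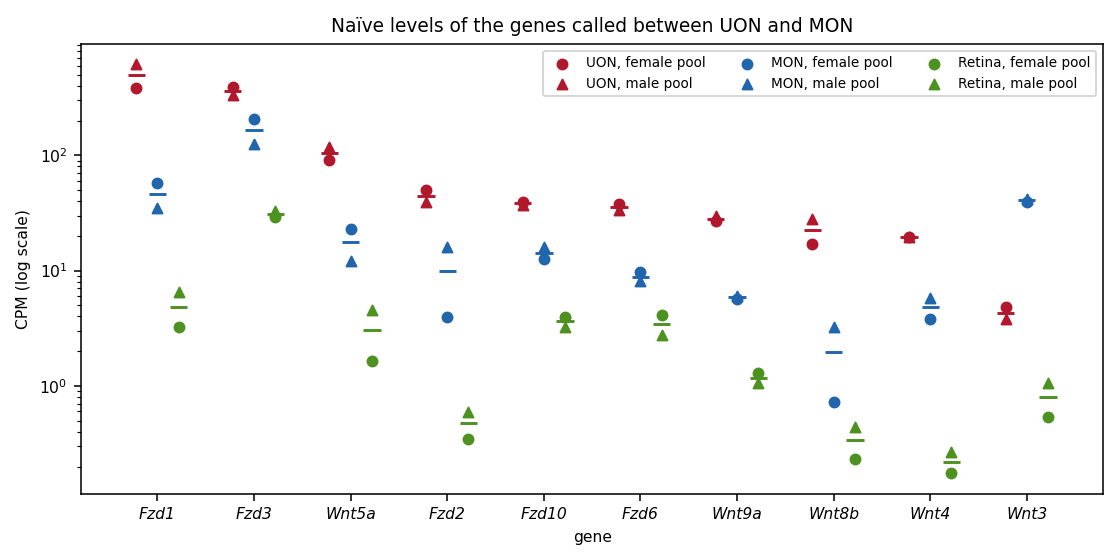
Levels in naïve mice of the 10 genes called between UON and MON, in UON (red), MON (blue) and retina (green), in CPM on a log axis. Each point is 1 pool (circle, female; triangle, male) and each bar the mean of 2 pools, and 9 of the 10 genes have both UON pools above both MON pools while Wnt3 has the reverse. The genes were picked by their calls on these same UON and MON pools.

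Tissue content moved with these differences. Of 14 fibroblast markers of sclera and meninges, 8 were higher in naïve UON, with summed levels of 4176 to 4652 CPM in UON against 543 to 740.2 CPM in MON. All 10 oligodendrocyte and myelin markers were lower in UON, with 22027 to 28865 CPM against 123561 to 165696 CPM, as were 5 of 6 precursor markers. Astrocyte markers split, with 3 of 8 higher and 1 lower. The part of these cell types in the members' levels was not tested, and in such bulk samples fewer cells of a type and less RNA per cell cannot be told apart.

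The calls for Wnt9a, Wnt3, Fzd1 and Fzd6 held when each of the 6 naïve libraries was left out in turn and under every other setting run. Without the female MON pool the calls for Fzd10, Fzd2 and Wnt4 were lost, and without the male MON pool those for Fzd3, Wnt4 and Wnt5a. Leaving out the female UON pool ended the calls for Fzd10 and Wnt4, leaving out the male UON pool that for Fzd3, and leaving out the female retina pool that for Fzd2. Wnt8b kept its call in all 6 of these fits. Over all settings run, the highest adjusted p of a called member was 0.208 (Fzd2).

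The same comparison over all 12 pools, in which UON and MON of the same mice were compared within each pool, averaged the tissue difference over naïve and injured mice. It includes the naïve libraries and is thus not independent of the result above. Of 35 members tested, 17 were higher and 2 lower in UON, where 12.8% of 30097 genes were called, 5.18% as higher and 7.62% as lower. The median log2 fold change was 1.35 over members and -0.06 over all genes. Of the 10 naïve calls, 9 recurred in the same direction. The exception was Fzd3 (log2 fold change 0.59 ± 0.16, edgeR adjusted p = 0.00615), whose difference was under the fold limit. The count was 18 without the 5 libraries picked by marker sums, and Sfrp1 was then the call lost (edgeR adjusted p = 0.0712).

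Fzd1 and Wnt4 were the called members whose UON and MON ranges did not overlap over the 12 pools. How many of all genes lacked overlap is not given here. Fzd1 ranged from 222 to 615 CPM (median 388) in UON and from 28.6 to 150.4 CPM (median 63.8) in MON (log2 fold change 2.49 ± 0.23, edgeR adjusted p = 2.68e-09). Wnt4 ranged from 15.1 to 39.9 CPM (median 19.8) and from 0.701 to 13.1 CPM (median 4.05) (log2 fold change 2.41 ± 0.34, edgeR adjusted p = 3.62e-06). The lowest UON library of each was thus above the highest MON library, whatever the treatment.

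Other ligands with large differences over all pools had overlapping ranges. Wnt6 was at 8.0 to 154 CPM (median 76) in UON and 1.43 to 29 CPM (median 3.84) in MON (log2 fold change 3.78 ± 0.57, edgeR adjusted p = 1.46e-05). The lowest UON library was male at 6 W of glaucoma and the highest MON library male at 3 D of glaucoma. Wnt8b was at 3.34 to 75.7 CPM (median 22.2) against 0.635 to 4.87 CPM (median 1.93) (log2 fold change 3.47 ± 0.41, edgeR adjusted p = 1.44e-07). Wnt3 was at 0.258 to 14.4 CPM (median 4.32) against 10.6 to 43.4 CPM (median 26.4) (log2 fold change -2.54 ± 0.35, edgeR adjusted p = 2e-06), and the highest UON library (female, 3 D of glaucoma) lay above the 2 MON libraries taken 2 W after crush. Wnt16, a ligand known for its role in cortical bone, was at 0.322 to 6.95 CPM (median 2.36) against 0 to 1.68 CPM (median 0.0929), a median under the floor (log2 fold change 3.78 ± 0.90, edgeR adjusted p = 0.00212). Wnt7a, the other vessel-building ligand, was the second gene higher in MON (log2 fold change -4.37 ± 0.95, edgeR adjusted p = 0.000992), though it only reached 1.87 CPM there and was at 0 in 8 of the 12 UON libraries, so the size of the fold is uncertain.

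The further calls were Wnt5a, Wnt9a, Fzd2, Fzd6 and Fzd10, which had been called in naïve mice, and Wnt7b, Wnt10a, Wnt11, Fzd5, Fzd8, Sfrp1 and Sfrp4, which had not. Their log2 fold changes were between 1.14 (Fzd8) and 2.97 (Wnt10a). Fzd5 and Fzd8, which form one receptor subfamily, were at 3.51 to 19.1 CPM (median 7.66) and 2.6 to 9.03 CPM (median 4.01) in UON and at 0.778 to 4.09 CPM (median 2.41) and 0.701 to 5.53 CPM (median 1.92) in MON. Not called were Fzd3, Fzd4, Fzd7 and Fzd9 among the receptors, and Wnt5b, Wnt2b, Wnt2 and Wnt10b among the ligands above the detection floor in several libraries. Of the inhibitors, Sfrp2, Sfrp5, Dkk1, Dkk2 and Dkk4 were not called. For Fzd9 the difference was -0.16 ± 0.41 and for Sfrp5 -0.05 ± 0.50 on the log2 scale.

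**Figure D3:**
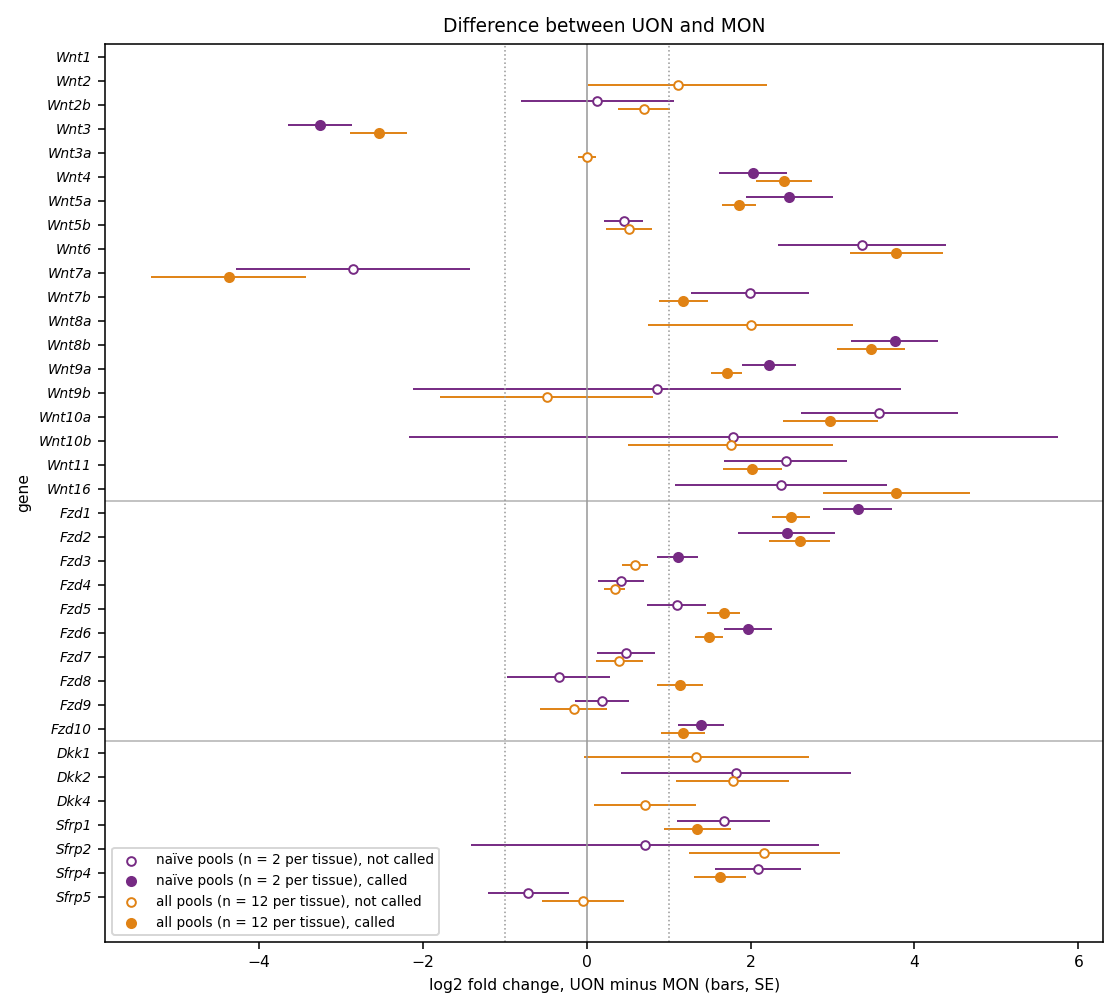
Difference between UON and MON for each gene as log2 fold change (points) with its SE (bars), in naïve pools (purple, n = 2 per tissue) and over all pools (orange, n = 12 per tissue), filled where called. Most points lie to the right of 0, Fzd1, Wnt4, Wnt8b and Wnt9a beyond 1 in both, and Wnt3 lies left of -2 in both.

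Both nerve regions differed from the retina in more members. In naïve mice 18 of 30 members tested were higher in UON than in retina and 1 was lower, where 31.4% of all genes were called, 18.1% as higher. In MON 19 were higher and 1 was lower, where 27.3% of all genes were called, 16.5% as higher. The median member difference was 3.99 for UON and 2.41 for MON on the log2 scale, against -0.17 and 0.00 over all genes.

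The largest UON to retina difference was that of Wnt7b, at 91.1 and 104 CPM in UON and 0 and 0.287 CPM in retina (log2 fold change 9.41 ± 1.07, edgeR adjusted p = 0.00214). Wnt6 was at 115 and 73.8 CPM against 0.388 and 0 CPM (log2 fold change 8.82 ± 1.35, edgeR adjusted p = 0.0088). The retina pools of both genes were at or near the detection floor, so the size of these folds is uncertain, and each call was lost when either UON pool was left out. Fzd1 was at 3.24 and 6.5 CPM in retina, well above the floor (log2 fold change 6.65 ± 0.49, edgeR adjusted p = 0.000105), and Fzd2 at 0.349 and 0.597 CPM, near it (log2 fold change 6.67 ± 0.71, edgeR adjusted p = 0.00056). Wnt4 was at 0.174 and 0.265 CPM in retina, where the floors were 0.233 and 0.265 CPM. Wnt8b (0.233 and 0.442 CPM), Sfrp4 (0.252 and 0.685 CPM) and Sfrp5 (0.291 and 0.265 CPM) were at or near the floor there too. The size of their folds against retina is uncertain. Both nerve regions also exceeded retina in Wnt3, Wnt4, Wnt5a, Wnt5b, Wnt8b, Wnt9a, Fzd3, Fzd6, Fzd7, Fzd9, Fzd10, Sfrp1, Sfrp4 and Sfrp5, with log2 fold changes from 2.43 (Wnt3) to 6.46 (Wnt4) for UON and from 1.39 (Fzd6) to 5.68 (Wnt3) for MON. Of these, the MON call was lost for Sfrp1 without the female MON pool or either retina pool (edgeR adjusted p up to 0.266), for Wnt8b without the male MON pool or with all 36 libraries in the fit (up to 0.134), for Fzd6 without the male retina pool (0.0569) and for Wnt5a without the filter on low counts (0.106). Wnt7a was at 1.46 and 1.62 CPM in MON and at 0 in both retina pools, at least 6.2-fold higher in MON when the retina is set to its floor of 3 read pairs, and its call was lost without any 1 of the 4 MON and retina pools.

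Fzd5 was the only member called higher in naïve retina than in nerve. It was at 17.4 and 23.2 CPM in retina, 4.93 and 7.98 CPM in UON and 1.96 and 4.09 CPM in MON, without overlap. The log2 fold change was -1.73 ± 0.36 for UON (edgeR adjusted p = 0.00879, lost without the female retina pool at 0.074) and -2.83 ± 0.38 for MON (edgeR adjusted p = 0.00131). Fzd4 was not called between these tissues. It stood at 18.6 and 20.9 CPM in retina, 18 and 22.4 CPM in UON and 16.7 and 12.7 CPM in MON, with log2 differences of -0.01 ± 0.28 for UON and -0.42 ± 0.28 for MON.

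Over all pools 25 members were higher and 2 lower in UON than in retina (background 46.7%, with 21.0% higher), and 21 were higher and 6 lower in MON than in retina (background 43.6%, with 21.1% higher). All 19 naïve calls for UON and all 20 for MON recurred in the same direction. Without the 5 libraries picked by marker sums the counts called in either direction were 29 for UON and 27 for MON. Fzd5 was at 10.6 to 23.2 CPM (median 18) in the 12 retina libraries, above every MON library. Wnt9b, a ligand of kidney development, was at 0.788 to 2.6 CPM (median 1.41) in retina and lower in UON (log2 fold change -4.80 ± 1.27, edgeR adjusted p = 0.00173) and MON (log2 fold change -4.31 ± 1.14, edgeR adjusted p = 0.00187). Its chromosome 11 neighbour Wnt3 had the opposite order, with 0.155 to 1.14 CPM (median 0.59) in retina. Wnt2b (log2 fold change -1.63 ± 0.32, edgeR adjusted p = 7.31e-05), Wnt10a (log2 fold change -1.62 ± 0.58, edgeR adjusted p = 0.0183) and Sfrp2 (log2 fold change -3.70 ± 0.93, edgeR adjusted p = 0.00112) were lower in MON than in retina, where Wnt2b was at 2.26 to 5.87 CPM (median 2.89). Sfrp2 and Wnt9b were near or under the floor in the nerve libraries, and the size of their folds is uncertain. Dkk4 passed the limits too, but both tissues were under the floor and no fold is given.

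The next question was which members changed with injury. After crush the MON showed 3 calls at 3 D, all lower than naïve, and 1 call at 2 W, also lower. At 3 D 29 members and 19988 genes were tested, and 5.07% of genes were called, 4.15% as higher and 0.921% as lower. The median log2 fold change was -0.70 over members and 0.00 over all genes. At 2 W the background was 3.52%, with 2.69% higher and 0.836% lower, and the medians were 0.39 and 0.05.

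Fzd9 (chr5:135248938-135251230, minus strand) fell from 87.1 and 50.8 CPM in naïve MON to 8.0 and 3.71 CPM at 3 D (log2 fold change -3.50 ± 0.47, edgeR adjusted p = 0.011). By 2 W it stood at 62.7 and 102 CPM, which overlapped naïve and was higher than at 3 D (log2 fold change 3.89 ± 0.49, edgeR adjusted p = 0.0358). In UON of the same mice it was at 66.1 and 97.1 CPM in naïve, 61.1 and 39.4 CPM at 3 D and 46 and 27.5 CPM at 2 W, and none of these changes was called. The 3 D crush pools of MON were below every other MON library.

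Wnt5b followed the same course in MON, from 39.4 and 29.6 CPM to 6.71 and 4.34 CPM at 3 D (log2 fold change -2.56 ± 0.41, edgeR adjusted p = 0.0143) and 23.4 and 39.5 CPM at 2 W. The later difference between 2 W and 3 D narrowly missed the limit (log2 fold change 2.49 ± 0.41, edgeR adjusted p = 0.0594). Sfrp1 (chr8:23411502-23449632, plus strand), the third gene, went from 21.2 and 9.85 CPM to 2.8 and 1.88 CPM (log2 fold change -2.58 ± 0.39, edgeR adjusted p = 0.0121) and then to 23.6 and 17 CPM at 2 W, higher than at 3 D (log2 fold change 3.08 ± 0.40, edgeR adjusted p = 0.0334). A receptor, a ligand and an inhibitor were thus lowest in the same 2 libraries. Fzd9 and Sfrp1 were the 2 members called among the 29 tested between 2 W and 3 D, where 0.395% of genes were called, 0.115% as higher. Both calls were lost at a minimum count of 40 (edgeR adjusted p = 0.0624 for Fzd9 and 0.0544 for Sfrp1).

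Wnt3 had another course. It was at 25.9 and 43.4 CPM at 3 D, overlapping the naïve 39.2 and 42.1 CPM, and at 10.6 and 13.2 CPM at 2 W (log2 fold change -1.75 ± 0.30, edgeR adjusted p = 0.0253). Its 2 W crush pools were the lowest of the 12 MON libraries.

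**Figure D4:**
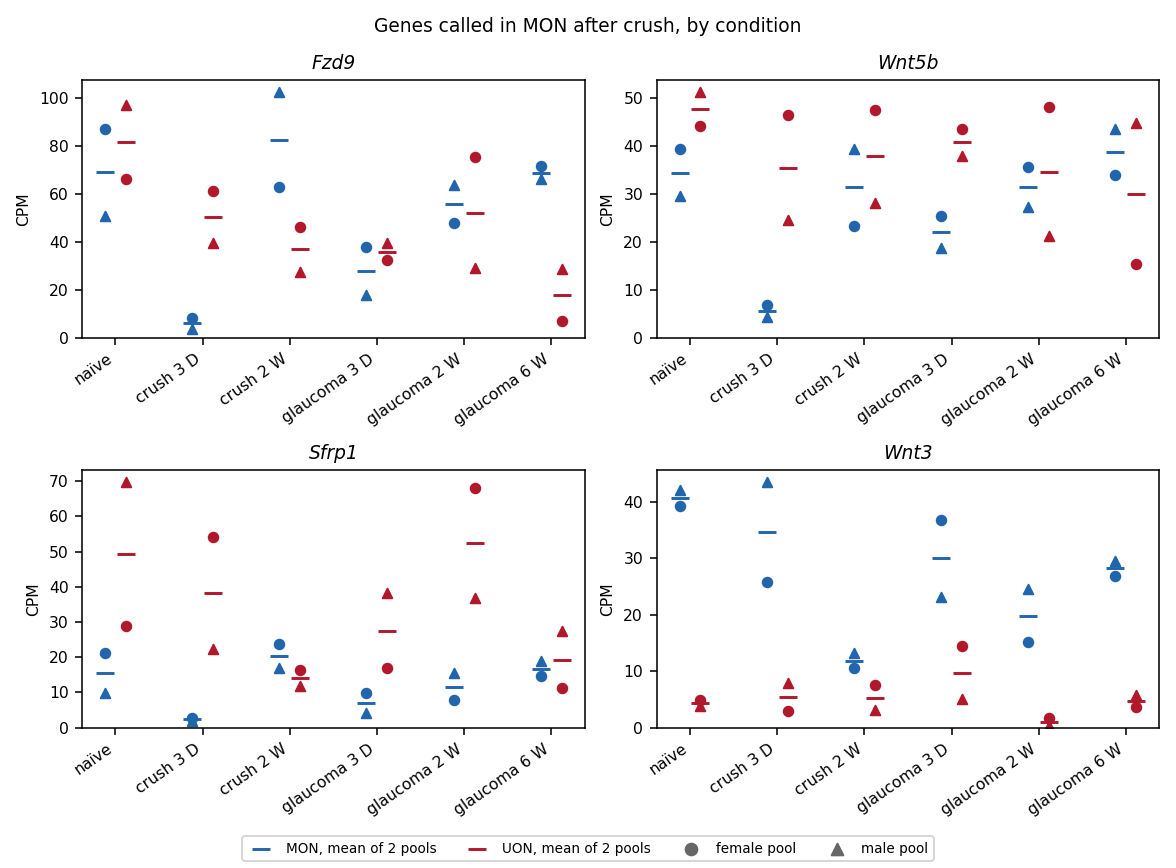
Levels of the 4 genes called in MON after crush (Fzd9, Wnt5b, Sfrp1 and Wnt3) by condition, in CPM on linear axes, for MON (blue) and UON (red). Points are pools (circle, female; triangle, male) and bars their means, and the 2 MON pools at 3 D after crush are the lowest MON points for Fzd9, Wnt5b and Sfrp1, as those at 2 W are for Wnt3.

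Further members had other levels than in naïve MON without passing the adjusted limit. Sfrp5 was at 8.32 and 7.21 CPM in naïve MON and 0.993 and 0 CPM at 3 D (log2 fold change -4.91 ± 1.44, edgeR adjusted p = 0.123). Fzd10 was at 6.01 and 1.5 CPM at 3 D and 35.8 and 52.7 CPM at 2 W, on either side of the naïve 12.6 and 15.9 CPM. Wnt7b had 69.4 and 51.2 CPM at 3 D, above both naïve pools at 32.8 and 15.3 CPM (edgeR adjusted p = 0.105). At 2 W Wnt5a was at 37.2 and 48.3 CPM and Sfrp4 at 55.4 and 12.7 CPM, both without overlap with naïve (edgeR adjusted p = 0.0822 and 0.0593). DESeq2 called 7 members at 3 D, among 2361 genes (Wnt7b and Wnt2 higher, Fzd9, Fzd10, Wnt16, Wnt5b and Sfrp1 lower). At 2 W it called 6 members, among 1699 genes (Sfrp4, Wnt5a, Dkk2, Fzd1 and Fzd10 higher, Wnt3 lower). Wnt2 at 3 D rested on the male pool (0.292 and 5.73 CPM). Wnt16 was at 0 in both 3 D pools and at 0.223 and 1.68 CPM in naïve MON, where the floors were 0.191 and 0.721 CPM.

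All 4 edgeR calls of crushed MON were lost when either naïve MON library was left out, with adjusted p up to 0.156 for Fzd9, 0.172 for Wnt5b, 0.141 for Sfrp1 and 0.204 for Wnt3. They held without any 1 of the crush libraries. Marker levels differed at the same times. All 8 cell cycle markers, which mark no one cell type, were higher at 3 D, with sums of 448 to 544 CPM against 10.3 to 12.1 CPM in naïve MON. The astrocyte sum was 7487 to 14411 CPM at 3 D against 13011 to 18651 CPM, with a median log2 fold change of -0.96 over its 8 markers, overlapping sums and no marker called by edgeR. The oligodendrocyte and myelin sum was 72922 to 87265 CPM at 3 D and 47017 to 60269.5 CPM at 2 W against 123561 to 165696 CPM, with 1 and 2 of 10 markers lower. Of 8 microglia and macrophage markers 2 were higher at 3 D, with sums of 2008 to 2542 CPM against 927 to 942 CPM, and 4 at 2 W, and 2 of 7 pericyte and smooth muscle markers were higher at 3 D. The part of these differences in the members' levels was not tested.

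No member was called in UON after either injury, in MON in glaucoma or in retina after either injury. In UON 153 member tests over 5 comparisons gave 11 unadjusted p under 0.05 with edgeR (7.19%) and no DESeq2 call. Of all genes, 1.98 to 9.45% had such a p by comparison, and at most 0.0281% were called by edgeR. DESeq2 called 33 to 496 genes by comparison. The lowest adjusted edgeR p of a UON member was that of Sfrp1 at 2 W after crush, 16.4 and 11.8 CPM against 28.9 and 69.7 CPM in naïve (log2 fold change -1.86 ± 0.61, edgeR adjusted p = 0.47). Fzd1, the most abundant receptor there, was at 258 and 222 CPM at 2 W after crush, below both naïve pools but without a call (edgeR adjusted p = 0.497).

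In MON in glaucoma 84 member tests gave 12 unadjusted p under 0.05 with edgeR (14.3%) and 1 DESeq2 call. Of all genes, 4.94 to 8.8% had such a p by comparison, and at most 0.00871% were called by edgeR. The DESeq2 call, among 430 genes, was Fzd9 at 3 D, 37.9 and 17.5 CPM against 87.1 and 50.8 CPM, with no overlap (log2 fold change -1.36 ± 0.36, edgeR adjusted p = 0.35). This comparison and the one after crush share the naïve libraries. At 6 W of glaucoma it was at 71.4 and 66.2 CPM, within the naïve range. Wnt3 at 2 W was at 15.2 and 24.5 CPM, below both naïve pools (log2 fold change -1.06 ± 0.33, edgeR adjusted p = 0.39).

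In retina 132 member tests over 5 comparisons gave 7 unadjusted p under 0.05 with edgeR (5.3%) and 1 DESeq2 call. Of all genes, 5.69 to 9.48% had such a p by comparison, and at most 0.648% were called by edgeR. The DESeq2 call, among 346 genes, was Sfrp1 at 2 W after crush, 1.11 and 0.473 CPM against 3.61 and 2.39 CPM (log2 fold change -2.0 ± 0.46, edgeR adjusted p = 0.124). The 2 W pools lay below both naïve pools and near the detection floor. Fzd4, Fzd5 and Fzd3, the leading retinal receptors, stayed within 14.2 to 22, 10.6 to 23.2 and 22.1 to 36.1 CPM over all 12 retina libraries.

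Whether UON and MON responded differently was tested as an interaction. No member was called by edgeR in 160 tests over 5 conditions, where at most 0.02% of all genes were. With edgeR 21 tests had an unadjusted p under 0.05 (13.1%), against 2.93 to 11% of all genes by condition. DESeq2 made 6 member calls, 2 at 3 D after crush, among 306 genes, and 4 at 2 W after crush, among 594. At 3 D after crush the difference of responses, UON minus MON, was 2.79 ± 0.61 for Fzd9 (edgeR adjusted p = 0.272) and 2.14 ± 0.56 for Wnt5b (edgeR adjusted p = 0.355) on the log2 scale. At 2 W it was -2.43 ± 0.48 for Wnt5a (edgeR adjusted p = 0.129), -2.53 ± 0.70 for Fzd1 (edgeR adjusted p = 0.227) and -1.84 ± 0.46 for Wnt9a (edgeR adjusted p = 0.191). By edgeR the fall of Fzd9, Wnt5b and Sfrp1 in crushed MON was thus not shown to differ from the change in UON. By DESeq2 the difference was called for Fzd9 and Wnt5b and not for Sfrp1, so the answer depended on the test.

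Crush and glaucoma were also compared at the same time points. No member was called by edgeR in 180 tests, where at most 0.146% of all genes were. Unadjusted p under 0.05 with edgeR numbered 21 (11.7%), against 1.05 to 10.4% of all genes by comparison. DESeq2 made 5 member calls, all lower after crush. They were Wnt5b, Fzd9, Fzd10 and Sfrp5 in MON at 3 D, among 573 genes, and Wnt2 in UON at 2 W, among 525. Wnt2 was at 0 in both UON pools at 2 W after crush. The lowest edgeR adjusted p was that of Wnt5b in MON at 3 D, 6.71 and 4.34 CPM after crush and 25.5 and 18.8 CPM in glaucoma, without overlap (log2 fold change -1.98 ± 0.35, edgeR adjusted p = 0.192). Fzd9 was at 8.0 and 3.71 CPM and 37.9 and 17.5 CPM (log2 fold change -2.22 ± 0.46, edgeR adjusted p = 0.291). Between 6 W and 3 D of glaucoma, and between the crush times of UON and retina, edgeR called no member. It gave 12 unadjusted p under 0.05, from 0 to 17.9% of members and 4.56 to 8.2% of all genes by comparison. DESeq2 called 1 member, Wnt2 in UON in glaucoma, among 127 genes. Wnt2 was at 1.05 and 0.495 CPM at 3 D and at 0 in both pools of 6 W. No member was called between male and female pools (90 edgeR tests over the tissues, no DESeq2 call, at most 0.0485% of all genes called by edgeR). Only 1 member test had an unadjusted edgeR p under 0.05 (1.11%, against 2.26 to 3.38% of all genes by tissue).

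Some of the highest and lowest member levels were those of 1 library. Wnt2, a ligand of lung and placental development, was at 21.4 CPM in the male UON pool at 3 D after crush and 5.73 CPM in MON of the same mice. It was at 0 in their retina and reached at most 1.07 CPM in each of the other libraries. The female pool of that group had 0.178 CPM in UON and 0.292 CPM in MON, so the pools of the group did not repeat each other.

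The male MON pool at 3 D of glaucoma had the highest MON level of 5 genes that were higher in UON: Wnt6 at 29, Fzd2 at 17, Wnt4 at 13.1, Wnt10a at 4.55 and Wnt9a at 15.1 CPM. The female pool of the group had 1.93, 2.66, 1.99, 0 and 11.6 CPM, so Wnt9a alone was not low there. In the male pool the fibroblast sum was 1972 CPM, against 578 CPM in the female pool. A fibroblast sum as high, 1989 CPM, was found in the female MON pool at 2 W after crush, where Wnt6 was at 3.91 and Fzd2 at 8.57 CPM. The male UON pool at 6 W of glaucoma, with a fibroblast sum of 2402 CPM, had the lowest UON level of Wnt6 (8.0 CPM), Fzd2 (3.39 CPM) and Fzd7 (4.26 CPM), where the female pool had 154, 37.9 and 17 CPM and a sum of 4935 CPM. In the male UON pool at 2 W after crush Wnt6 was also low, 21.8 CPM, beside a fibroblast sum of 6128 CPM. The surface epithelium sum there was 22.4 CPM. At 6 W of glaucoma that sum was 3.64 CPM in the male UON pool and 106 CPM in the female one. In MON its highest value, 1367 CPM, was in the female pool at 6 W of glaucoma, where Wnt6 was at 3.76 CPM. The part of fibroblasts or surface epithelium in these levels was not tested.

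**Figure D5:**
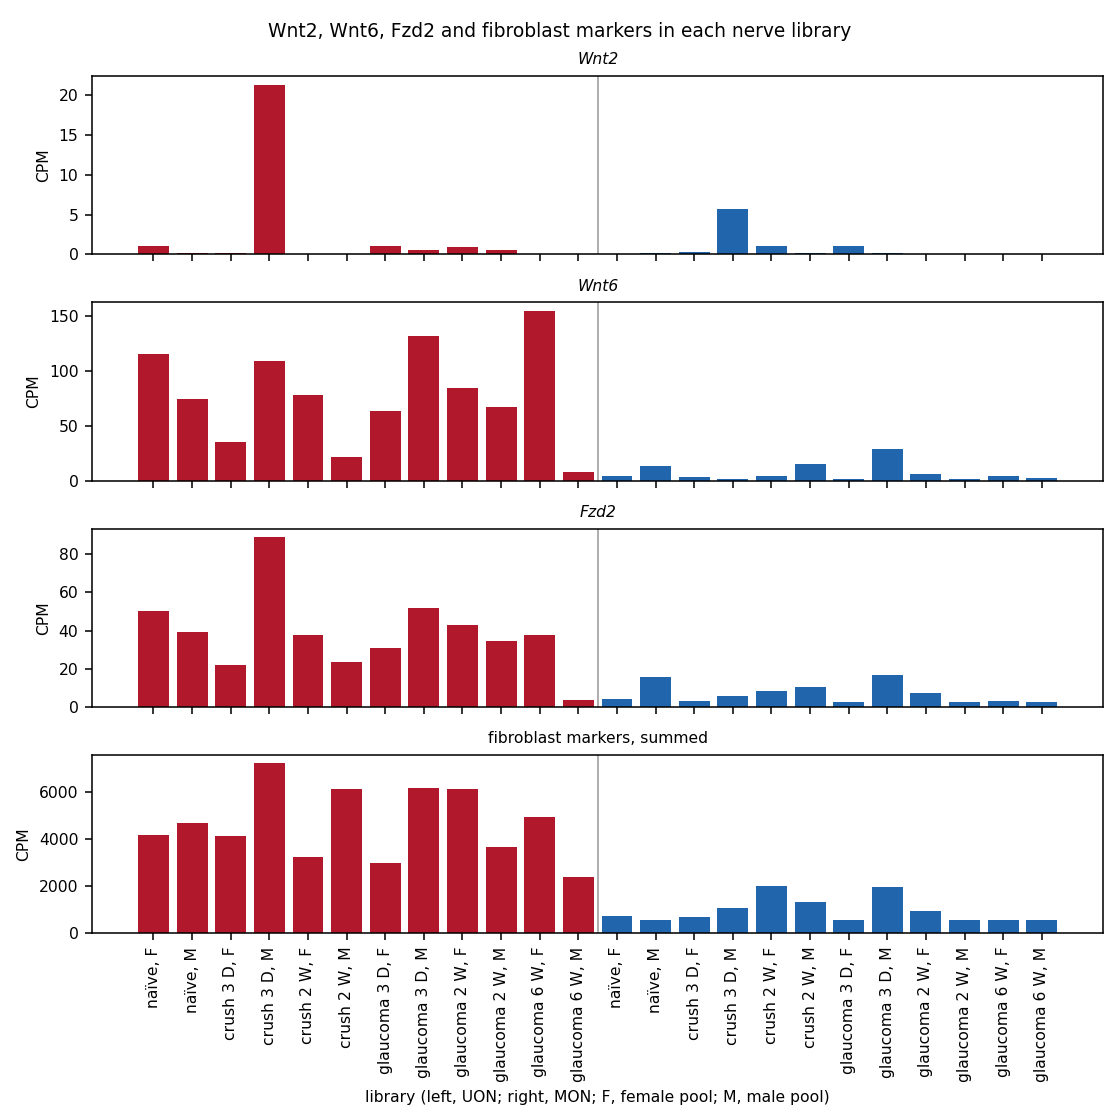
Levels in CPM, by library, of Wnt2, Wnt6, Fzd2 and the fibroblast marker sum in UON and MON. Wnt2 stands out in the male pool at 3 D after crush in both nerve regions, and Wnt6 and Fzd2 are high in the male MON pool at 3 D and low in the male UON pool at 6 W of glaucoma. The fibroblast sum is high and low in these 2 pools too, and is as high in the female MON pool at 2 W after crush.

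The rest of the pathway was counted on lists of coreceptors, other extracellular regulators, cytoplasmic and nuclear components, targets and polarity genes, in the naïve UON to MON comparison, where 4.86% of all genes were called higher and 4.77% lower. Of 14 coreceptors and further receptors 3 were higher in UON, with a list median of 1.02 against -0.06 over all genes: the pseudokinase Ptk7 (2.30 ± 0.32, edgeR adjusted p = 0.00595), Tspan12, a partner of Fzd4 (2.22 ± 0.28, edgeR adjusted p = 0.00408), and the Wnt5a receptor Ror1 (2.15 ± 0.43, edgeR adjusted p = 0.0237), values being log2 fold changes. Of 10 other secreted or membrane inhibitors tested 5 were higher (median 2.58), led by the Wnt deacylase Notum (3.18 ± 0.78, edgeR adjusted p = 0.0469), the ligand-binding Wif1 (3.15 ± 0.55, edgeR adjusted p = 0.0194) and Dkk3 (2.64 ± 0.34, edgeR adjusted p = 0.00429). Of 16 canonical target genes 6 were higher (median 1.15), led by Ccn4 (5.13 ± 0.87, edgeR adjusted p = 0.0174) and Sp5 (3.49 ± 0.67, edgeR adjusted p = 0.0272). The target list shares Notum and Apcdd1 with the inhibitors. It shares Znrf3, Rnf43 and Lgr5 with the coreceptors and further receptors, so the counts of these lists are not independent. R-spondins, which keep receptors on the cell surface, and the Fzd4 ligand Norrin gave 1 call of 5, Rspo3 (1.69 ± 0.31, edgeR adjusted p = 0.0182).

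Of 20 cytoplasmic and nuclear components 1 was higher, a share near that of all genes, the transcription factor Tcf7l2 (1.27 ± 0.27, edgeR adjusted p = 0.0286), and 2 were lower, the beta-catenin cofactors Bcl9l (-1.87 ± 0.38, edgeR adjusted p = 0.0255) and Bcl9 (-1.08 ± 0.26, edgeR adjusted p = 0.0455), with a median of 0.03. Of 13 polarity genes 4 were higher, among them Fzd3 and Fzd6, and 3 were lower. The secretion genes Porcn and Wls had a median of 0.21.

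In MON at 3 D after crush, where 4.15% of all genes were called higher and 0.921% lower, 1 of 13 coreceptors tested was lower, Lrp6 (-1.88 ± 0.30, edgeR adjusted p = 0.0138), and 2 of 20 cytoplasmic and nuclear components, Tle1 (-2.0 ± 0.42, edgeR adjusted p = 0.0361) and Ctnnbip1 (-1.49 ± 0.33, edgeR adjusted p = 0.0435). Of 16 target genes 2 were higher, Myc (3.21 ± 0.32, edgeR adjusted p = 0.00398) and Ccnd1 (1.78 ± 0.31, edgeR adjusted p = 0.019), which are also growth genes with many other inputs. One polarity gene, Prickle2, was lower (-1.45 ± 0.31, edgeR adjusted p = 0.0387). At 2 W Myc (2.02 ± 0.31, edgeR adjusted p = 0.0198) and Ccnd1 (1.66 ± 0.31, edgeR adjusted p = 0.0299) were still higher, and Ptk7 was higher (1.68 ± 0.32, edgeR adjusted p = 0.0337). List medians at 3 D were -0.67 for coreceptors, -0.59 for cytoplasmic and nuclear components, -0.08 for targets and -0.66 for polarity genes, against 0.00 over all genes.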

How the data were processed

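Bulk RNA-seq of UON, MON and retina was analysed in 36 libraries, each of RNA pooled from 2 mice of one sex (12 pools, 3 tissues each). The authors aligned reads to GRCm38 with HISAT2 2.2.1 and assembled them with StringTie 1.3.0 on Gencode M25. The deposited estimated counts per gene were made by the authors with StringTie's count script and are not normalized. Levels between genes were read from the FPKM deposited for each library, which the authors took from StringTie. Deposited transcript counts were not used. Floors cover counting error only.

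Counts were tested with edgeR 4.0.16 in R 4.3.3 (TMM, filterByExpr with minimum count 10 and total 15, robust quasi-likelihood F test, Benjamini-Hochberg over all genes tested), and called at adjusted p under 0.05 and log2 fold change beyond 1. Tissue and sex were terms for the 6 naïve libraries, tissue and pool for all 36, group and sex within a tissue, and tissue by group with sex for differences in response. Errors beside fold changes are SE. Listed CPM use TMM factors over all 36 libraries. The tissues of a pool come from the same mice by the study's methods, which is where the pairing comes from. DESeq2 1.42.0 and other size factors, filters and terms were alternatives. Leaving out libraries in turn was a further one for naïve tissues, comparisons with naïve and crush against glaucoma. The fits were tested on simulated data.

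All 36 members are named. Values of both pools are given for members called between naïve UON and MON or against naïve. For members called between naïve nerve and retina they are given for some, and the rest by ranges of fold change. Other pathway genes are counted by list and named where called in naïve UON against MON or in MON after crush, at most 3 a direction. Members and lists were chosen with earlier results of these data known. Exon overlaps used Gencode M21 on GRCm38. A further marker of the tissue labels is not reported here.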

Additional observations from a re-analysis of the deposited data

How the results depend on the processing

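With n = 2 pools a group, 2 to 3 residual degrees of freedom stood behind each comparison with naïve, and counts of called members moved with the settings. For naïve UON against MON 10 members were called, 15 with DESeq2, 5 when all 36 libraries were fitted together, and 8 to 15 when each naïve library was left out in turn. Against retina, leaving out each library gave 19 to 20 members for UON and 16 to 19 for MON. For MON after crush 4 calls became 13 with DESeq2, 12 without the filter on low counts and 0 to 13 with each library left out, 0 only without a naïve MON library. MON in glaucoma and retina after crush had no edgeR call and 1 each with DESeq2. For the difference in response between UON and MON, 0 calls became 6 with DESeq2 and 8 without the filter, and stayed 0 with the replicate block, in which the pool was a term. For differences between times, 2 calls became 9 with DESeq2, 9 without the filter and 0 with a minimum count of 40. For crush against glaucoma, 0 calls became 5 with DESeq2, 1 without the filter and 0 to 3 with each library left out (3 without the female MON pool at 3 D after crush). Over all pools 19, 27 and 27 members were called for UON against MON, UON against retina and MON against retina, 21, 26 and 25 with no replicate block, and 18, 25 and 27 in injured mice alone. The cause of these moves was not tested. No called member changed direction under any alternative examined. For differences between times, fits with a library left out or with all 12 libraries of the tissue were not examined. The alternative without the 5 libraries picked by marker sums was chosen after seeing the data.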
